A study of Mus musculus with 4 samples.

Results

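The genes described here encode the PGC-1 coactivators and the transcription factors they work with in oxidative muscle: Ppargc1a and Ppargc1b, the estrogen-related receptors Esrra, Esrrb and Esrrg, the fatty acid receptors Ppara and Ppard, and the factors Tfam, Nrf1 and Gabpa. They were chosen by symbol, and all 10 were found among the 51826 genes of the deposited table and among the 16120 genes with enough reads to be tested. RNA came from the quadriceps of sedentary male mice of about 20 weeks on the C57BL6/J background, 2 wild type (WT) and 2 Mef2dα2 Eko. The Eko mice carry a CRISPR-Cas9 germline deletion of the α2 exon of Mef2d, an alternative exon used mainly in striated muscle, so every tissue lacks the exon and the other Mef2d isoforms can still be made. The study kept more than a single founder line, and which line gave these RNA samples is not given in the sources used here. Libraries were polyA-selected, and each deposited value is the number of read pairs that RSEM, a quantification program, assigned to a gene, so isoforms and alternative promoters of a gene are not separated.

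PGC-1α, the product of Ppargc1a, does not bind DNA itself. It is brought to promoters by nuclear receptors and other factors, and it raises the transcription of mitochondrial and fatty acid oxidation genes. In skeletal muscle it is best known for its rise after exercise and for its higher level in oxidative fibres. MEF2 proteins bind the Ppargc1a promoter and are in turn coactivated by PGC-1α, which is why these genes bear on a MEF2D isoform mutant. PGC-1β shares most of these partners but responds less to exercise. ERRα and ERRγ drive genes of the tricarboxylic acid cycle and of oxidative phosphorylation. PPARα and PPARδ drive genes of fatty acid uptake and oxidation. NRF1 and GABPA drive nuclear genes of the respiratory chain and Tfam, whose protein packages mitochondrial DNA and takes part in its transcription.

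The libraries held between 72626757 and 85176059 assigned read pairs. Mitochondrially encoded genes took 15.79% to 20.71% of them, with the highest share in WT mouse 1. The 7 muscle identity genes, such as Acta1 and Ckm, summed to between 131400 and 141900 CPM (counts scaled to library size, here with TMM factors). Total Mef2d was 259.4 and 227.4 CPM in WT, 251.7 and 240.6 CPM in Eko, and the groups overlapped (log2 fold change 0.02, SE 0.0827). A gene total does not check the deletion, because a mutually exclusive partner exon can take the place of the deleted one.

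None of the 10 genes passed an adjusted p of 0.05 in edgeR's quasi-likelihood test (Benjamini-Hochberg over all genes), in a comparison where 0.416% of all tested genes were called (67 of 16120, of which 50 were lower and 17 higher in Eko). At an unadjusted p below 0.05, Esrra and Esrrb had lower and Gabpa higher values in Eko. That is 3 of 10 genes, in a comparison where 11.6% of all tested genes had such a p, 6.41% lower and 5.15% higher. In DESeq2 and in edgeR's likelihood ratio test only 1 of the 10 had such a p. In DESeq2 this was Esrrb (unadjusted p = 0.00463), with Esrra at 0.0678 and Gabpa at 0.0705. In Esrra, Esrrb and Ppard both Eko mice lay below both WT mice, as they did in 23% of all tested genes. In Gabpa both lay above, as in 20.8% of all tested genes. The other 6 genes overlapped between the groups. The median log2 fold change of the 10 genes was -0.05, beside -0.0051 over all tested genes, and 7 of the 10 values were negative. With 2 mice against 2, an exact two-sided permutation test cannot go below 0.333, so the tests rest on the spread that edgeR estimated across all genes. Separate mice were sequenced, and a p-value measures the spread between these 4 animals only.

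**Figure D1:**
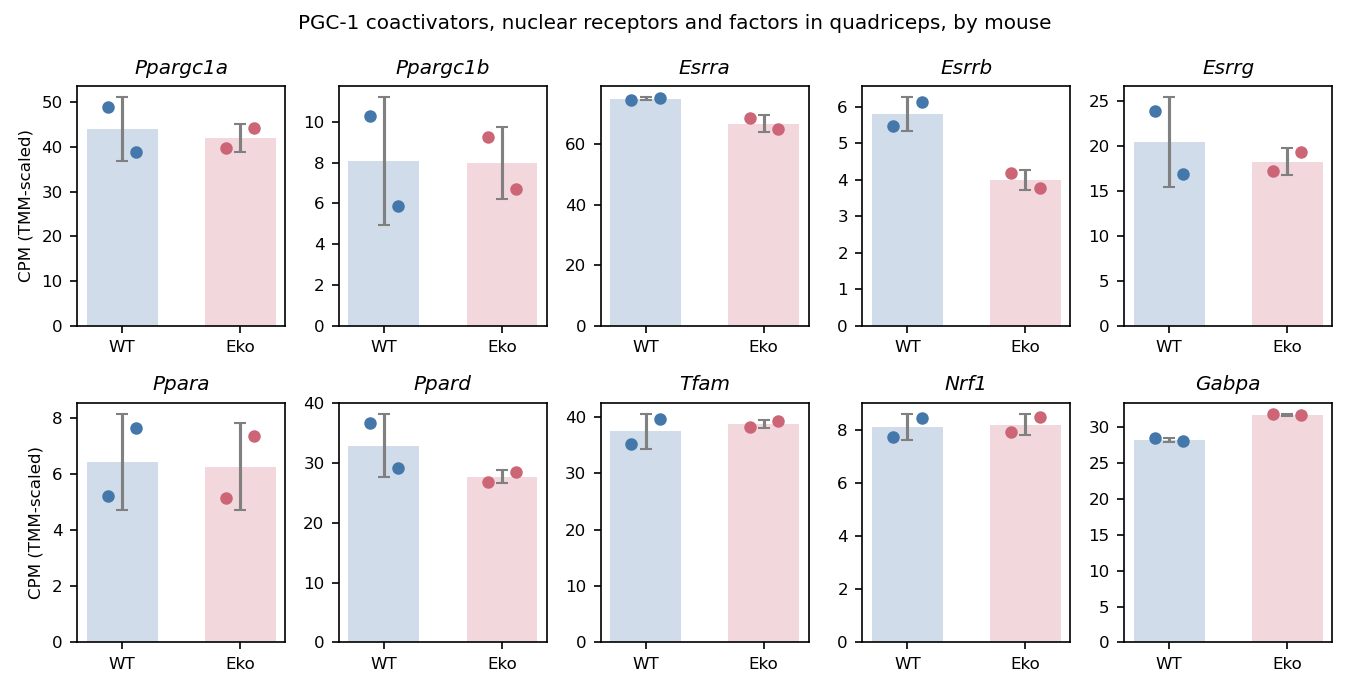
Level of each gene in each quadriceps sample, in TMM-scaled CPM on axes that start at 0. Points are mice, bars are group means and grey lines are ± SD (n = 2). The Eko points lie below the WT points in Esrra, Esrrb and Ppard, and above them in Gabpa.

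Ppargc1a reached 48.94 and 38.82 CPM in WT and 39.84 and 44.21 CPM in Eko. Both Eko values fell between the WT values. The mean was 43.9 ± 7.16 CPM in WT and 42.0 ± 3.09 CPM in Eko (SD, n = 2), and the log2 fold change was -0.06 (SE 0.118, 95% interval -0.34 to 0.22, edgeR adjusted p = 0.882). On the linear scale this interval runs from 0.788 to 1.16 times the WT level, so a 2-fold change of total Ppargc1a mRNA in either direction lay outside it. The WT mice differed from each other by 0.33 on the log2 scale, more than the genotypes did. Leaving out WT mouse 1, the highest of the 4, turned the sign to 0.12, and leaving out Eko mouse 1 gave 0.03. The gene lies on chromosome 5 (GRCm38, 51454250 to 51567726, minus strand) and has 5 annotated transcripts, 3 of them coding. Its alternative promoters are therefore summed here.

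Ppargc1b, on chromosome 18 (61298136 to 61400431, minus strand), was the most variable of the 10. It was at 10.28 and 5.861 CPM in WT and at 9.245 and 6.726 CPM in Eko, so the Eko values again lay between the WT values. The WT mice were 0.81 apart on the log2 scale, a gap that was wider than read counting alone allows (95% counting interval 0.64 to 0.98). The log2 fold change of -0.01 (SE 0.267) had an interval from -0.64 to 0.62. These libraries thus bound a change of Ppargc1b less tightly than one of Ppargc1a, and its sign was not fixed. It was 0.45 without WT mouse 1 and -0.35 without WT mouse 2.

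Per kilobase of exon, the PGC-1 family was led by Ppargc1a. The share of Ppargc1a in the summed level of Ppargc1a, Ppargc1b and the related coactivator Pprc1 was 56.77% and 54.14% in WT and 51.89% and 58.74% in Eko. Ppargc1b made up 16.6% in WT and 17.3% in Eko as a group mean. Pprc1 made up the remaining 27.9% and 27.4%. The spread of the mice exceeded the group difference in each of these shares.

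Esrra encodes ERRα, the main estrogen-related receptor of these samples. Its values were 74.59 and 75.29 CPM in WT, and 68.76 and 64.87 CPM in Eko. The groups did not overlap, but the Eko mean still stood at 89.2% of that in WT. This gave a log2 fold change of -0.17 (SE 0.0673, 95% interval -0.33 to -0.01, edgeR adjusted p = 0.419). The difference stayed between -0.19 and -0.12 when any 1 mouse was left out. The gene lies on chromosome 19 (6910977 to 6921813, minus strand) and overlaps Trmt112 on the other strand. Trmt112 had 789 to 1024 counts per library, against 4639 to 6089 for Esrra, and a log2 fold change of 0.05. The kit keeps strand, but whether the counting used it is not given in the sources used here.

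Esrrb had the largest difference of the 10. ERRβ is better known from embryonic stem cells and the placenta than from muscle, and its mRNA was scarce here, with 271 to 495 counts per library. It was at 5.469 and 6.121 CPM in WT and at 4.176 and 3.789 CPM in Eko. Both Eko values lay below both WT values, and the Eko mean stood at 68.7% of that in WT. On the log2 scale the difference was -0.54 (SE 0.130, 95% interval -0.85 to -0.23, edgeR adjusted p = 0.211), and Esrrb held rank 336 of the 16120 genes by p. With no filter on low counts the edgeR adjusted p was 0.0172, in a setting that called 3.25% of all genes. Over the other 14 alternatives it ranged from 0.0744 to 0.440. Without any 1 mouse the difference stayed between -0.62 and -0.44. The gene is on chromosome 12 (86361117 to 86521628, plus strand) and no annotated gene overlaps it.

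Esrrg encodes ERRγ, a receptor typical of slow, oxidative fibres, and lies on chromosome 1 (187608791 to 188214885, plus strand). Its values were 23.92 and 16.9 CPM in WT and 17.23 and 19.28 CPM in Eko. WT mouse 1 stood apart from the other 3, and the WT mice differed by 0.50 on the log2 scale. Eko was lower by a log2 fold change of -0.16 (SE 0.159, 95% interval -0.54 to 0.22, edgeR adjusted p = 0.743), which was 0.11 without WT mouse 1.

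Within the estrogen-related receptors, the share of Esrra in the family's level per kilobase was 80.1 ± 2.82% in WT and 80.9 ± 1.45% in Eko (SD, n = 2). Esrrg followed with 15.4% and 15.6%. Esrrb held 4.156% and 4.844% in WT, then 3.608% and 3.384% in Eko, so its share was lower in both Eko mice. No test was made of these shares.

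Ppara encodes PPARα, the fasting-responsive fatty acid receptor that is most abundant in liver and heart. It was at 5.232 and 7.642 CPM in WT and at 5.162 and 7.355 CPM in Eko. Each genotype had a low and a high mouse, about 0.5 apart on the log2 scale in both. Between the genotypes the difference was -0.04 (SE 0.227, 95% interval -0.58 to 0.49), and leaving out WT mouse 2 turned it to 0.27. The gene is on chromosome 15 (85734983 to 85802819, plus strand).

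Ppard encodes PPARδ, the most abundant PPAR of muscle, and it lies on chromosome 17 (28232700 to 28301474, plus strand). The 2 WT mice had 36.7 and 29.21 CPM, the Eko mice 26.93 and 28.5 CPM. The Eko values were below both WT values, but WT mouse 2 lay within 1 CPM of Eko mouse 2. The difference was -0.25 on the log2 scale (SE 0.114, 95% interval -0.52 to 0.02, edgeR adjusted p = 0.466). Without WT mouse 1 it was -0.08, and without WT mouse 2 it was -0.39 with an adjusted p of 0.0666. The size of the difference thus depended on which WT mouse was kept.

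Ppard made up 64.7% of the summed PPAR level per kilobase in WT and 63.4% in Eko. Ppara made up 25.2% and 27.8%, or 16.5% and 18.25% with the longest transcript as length. Pparg, the adipocyte PPAR, made up 10.1% and 8.80%, and was at 2.596 CPM in WT mouse 1 against 1.482 to 1.531 CPM in the other 3 mice. Its log2 fold change of -0.43 (edgeR adjusted p = 0.609) was 0.02 without that mouse.

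Gabpa, which encodes the DNA-binding subunit of GABP (NRF2), was the only gene of the 10 in which both Eko mice lay above both WT mice. The values were 28.45 and 28.06 CPM in WT and 31.83 and 31.67 CPM in Eko, with mice of a group within 1 CPM of each other. This was 1.12 times the WT level, a log2 fold change of 0.17 (SE 0.0674, 95% interval 0.01 to 0.33, edgeR adjusted p = 0.411). It stayed between 0.17 and 0.18 when any 1 mouse was left out, but was 0.11 after correction for the GC content of genes. Across all genes log2 fold change fell with GC content (Spearman rho -0.215, a description over genes), and Gabpa has the lowest exon GC content of the 10, 41.37%. The gene is on chromosome 16 (84834925 to 84863779, plus strand) and starts within Atp5j, which lies on the other strand and had 9178 to 11346 counts per library, more than the 2159 to 2744 of Gabpa. Atp5j itself had a log2 fold change of 0.05. How reads from the shared stretch were divided was not tested.

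Tfam was at 35.21 and 39.58 CPM in WT and at 38.23 and 39.15 CPM in Eko, with a log2 fold change of 0.05 (SE 0.0805, 95% interval -0.14 to 0.24). Nrf1, the nuclear respiratory factor, was at 7.736 and 8.433 CPM in WT and at 7.911 and 8.474 CPM in Eko, with a log2 fold change of 0.02 (SE 0.105, 95% interval -0.23 to 0.27). The groups overlapped in both genes, and the upper bound for Tfam corresponds to 1.18 times the WT level. Both signs turned when WT mouse 1 was left out, to -0.03 for Tfam and -0.04 for Nrf1. Tfam lies on chromosome 10 (71225464 to 71238280, minus strand) and Nrf1 on chromosome 6 (30047988 to 30153458, plus strand).

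**Figure D2:**
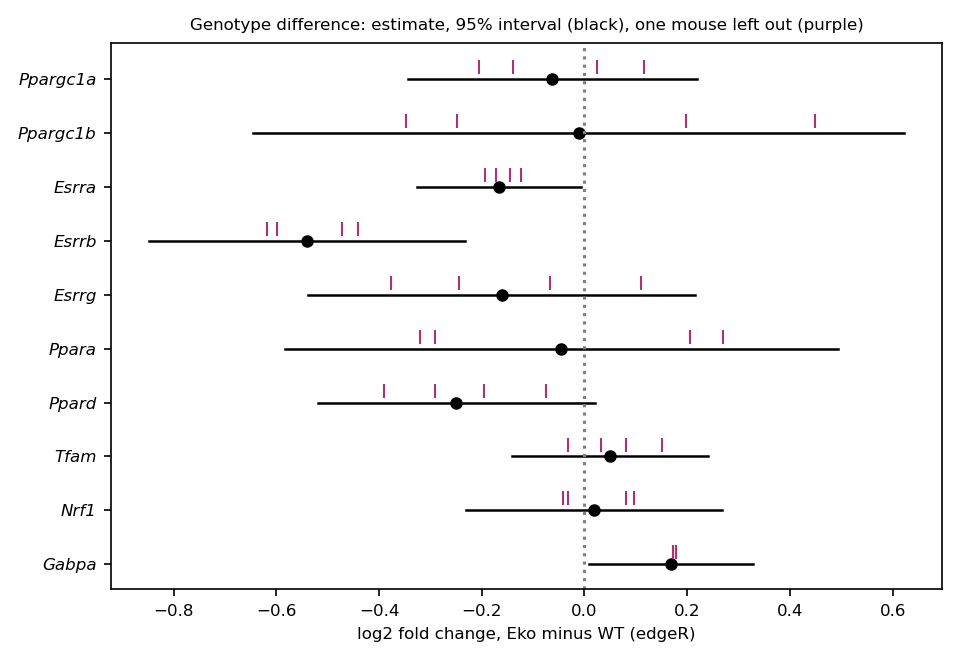
Log2 fold change of Eko against WT for each gene, with its 95% interval from edgeR in black and the values obtained without 1 mouse in purple. The interval reaches or crosses 0 in 7 genes, and lies farthest from it in Esrrb (-0.85 to -0.23).

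The 10 genes spanned a wide range of levels. Per kilobase of exon, with all annotated exons of a gene counted, Esrra led with a mean of 16.2 CPM per kb over the 4 mice, followed by Tfam with 8.57, Ppargc1a with 6.52, Gabpa with 5.28, Ppard with 4.04 and Esrrg with 3.11 CPM per kb. Ppargc1b had 2.01, Ppara 1.66, Esrrb 0.809 and Nrf1 0.792 CPM per kb. Esrra was thus 20.4 times the level of Nrf1. The ranges of the 4 mice overlapped between the neighbours Ppard and Esrrg, between Ppargc1b and Ppara, and between Esrrb and Nrf1, so the order within these pairs was not resolved. Nrf1 has 20 annotated transcripts and 10282 bases of exon, and with the length of the longest transcript in place of all exons only 4 of the 10 genes kept their rank.

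**Figure D3:**
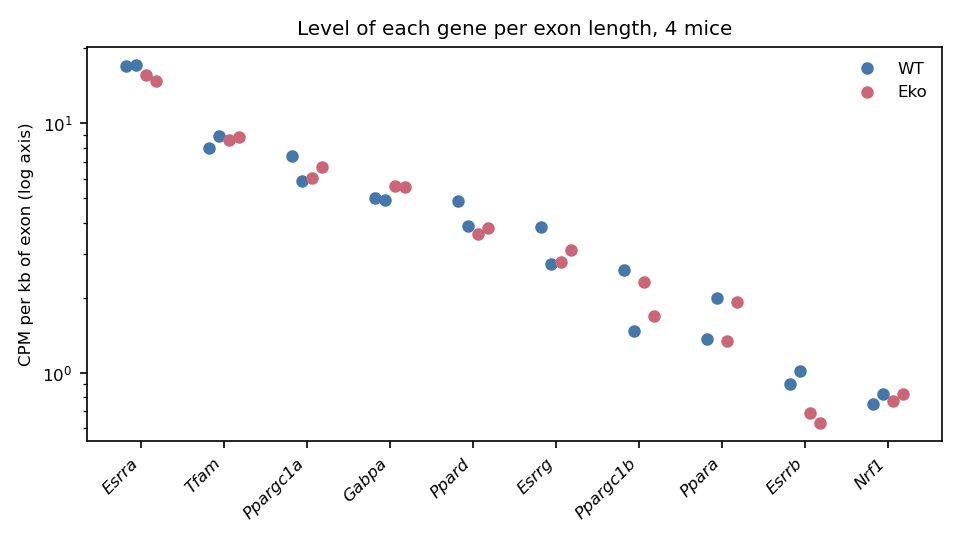
Level of each gene in CPM per kilobase of exon on a log axis, ordered by the mean of 4 mice. Levels ran from 16.2 for Esrra to 0.792 for Nrf1, and WT and Eko points of the same gene lay far closer than the ends of the range.

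Of the 148 genes on the lists of regulators, partners and targets, Crtc2 and Esrrg followed Ppargc1a most closely over the 4 mice, with root mean square differences of 0.0549 and 0.0733 in centred log2 CPM. Crtc2 encodes a CREB coactivator. With 4 libraries this is a description only.

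The promoter windows of these genes, 250 bases before to 50 bases after each RefSeq start in GRCm38.p6, were read for 4 motifs on both strands. The table held windows for 9 of the 10 genes, 14 in all. The MEF2 motif, bound by the factor family altered in these mice, was in 2 of the 14 windows, against 3.19% of all 32851 windows. These were 1 of the 4 windows of Esrrg and 1 of the 2 windows of Nrf1, genes in which the WT and Eko values overlapped. The only windows with the NRF1 motif GCGCANGCGC (4.6% of all windows) and the GABP motif CCGGAAG (8.86%) were that of Ppara for the first and those of Tfam and Gabpa for the second. The ERR motif AAGGTCA (4.72%) was in none of the 14, and the single Ppargc1a window held none of the 4 motifs. A match describes letters only. The 3 windows below are shown because they carry the MEF2 or the NRF1 motif, which stands in capitals, and each lies in an intron of the named gene in GENCODE M21, which has other starts upstream. Each is written on the plus strand, which is the gene's own.
Esrrg, chr1:187608974-187609003: taaaactttgCTATTTATAGtctacgcccg
Nrf1, chr6:30076216-30076245: cgtagggtatTTATAATTAGtgattggggg
Ppara, chr15:85735735-85735764: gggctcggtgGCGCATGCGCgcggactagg

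The genes that control Ppargc1a were examined next. The 25 upstream regulators included the MEF2 factors, CREB with its CRTC coactivators, AMPK subunits, calcineurin, p38 and class IIa histone deacetylases. None passed the adjusted threshold in edgeR's quasi-likelihood test. Prkag3, which encodes the AMPK γ3 subunit of fast glycolytic muscle, had the largest positive difference. It was at 92.1 and 121.2 CPM in WT and at 158.4 and 132.8 CPM in Eko, higher in both Eko mice (log2 fold change 0.45, SE 0.142, edgeR adjusted p = 0.310). Hdac7, a class IIa deacetylase that represses MEF2 targets, had the largest negative one, -0.18. In all, 20 of the 25 values were positive, 12 genes had both Eko mice above both WT mice (20.8% of all genes did) and the median was 0.08. At an unadjusted p below 0.05, 4 were higher (5.15% of all genes) and none lower. The number with such a p was 3 in DESeq2 and 2 in the likelihood ratio test. When any 1 mouse was left out the list median stayed between 0.067 and 0.102. Prkag3 passed in DESeq2 (adjusted p = 0.0486, with 2.02% of all genes called), but 0 of the 25 did without independent filtering. With no filter on low counts, Prkag3 and the calcineurin subunit gene Ppp3ca passed in edgeR, with 3.25% of all genes called. Ppp3ca was named after its values were seen.

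Partners and corepressors showed no called gene either. Over 20 genes the median log2 fold change was -0.03, with 2 higher and 2 lower at an unadjusted p below 0.05 (5.15% and 6.41% of all genes). The largest positive value was 0.24 in Gabpb2, which encodes a subunit of the GABP complex, and the largest negative value was that of Pparg given above. Perm1, a muscle-specific regulator induced by PGC-1 and ERR, had 282 and 233.8 CPM in WT and 201.5 and 185.7 CPM in Eko. Its log2 fold change of -0.41 (SE 0.101) did not pass (edgeR adjusted p = 0.220), but it did in DESeq2 (adjusted p = 0.0132, with 2.02% of all genes called), in edgeR's likelihood ratio test (1.94% called), with no filter on low counts and without WT mouse 2 (1.79% called). Perm1 was named after its values were seen. In the machinery that transcribes and copies mitochondrial DNA, none of 20 genes had an unadjusted p below 0.05 and the median was -0.01. Its extremes were the near-identical copies Mterf1a (-0.32) and Mterf1b (0.36), whose reads are uncertain to divide and whose levels were below 1 CPM.

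Of 25 targets of PGC-1 and ERR, 1 passed the threshold. Ckmt2, the sarcomeric mitochondrial creatine kinase, fell from 763.7 and 702.3 CPM in WT to 513.5 and 477.6 CPM in Eko (log2 fold change -0.56, SE 0.0790, edgeR adjusted p = 0.0484). Both Eko mice lay well below both WT mice. The call sat at the threshold in edgeR's quasi-likelihood test. The adjusted p was 0.0503 with RLE scaling, 0.0522 with upper-quartile scaling, 0.0593 after correction for GC content and 0.0665 with a filter at 1 CPM. Ckmt2 passed in limma-voom (adjusted p = 0.0431) and with the replicate block in edgeR (adjusted p = 0.0152, with 1.15% of all genes called). It also passed in the likelihood ratio test (adjusted p = 3.76e-05, 1.94% called) and in DESeq2 (adjusted p = 3.72e-08, 2.02% called). The size moved little, from -0.61 to -0.50 over all alternatives. In all, 3 of the 25 had an unadjusted p below 0.05, all lower (6.41% of all genes), and 10 had both Eko mice below both WT mice (23% of all genes). Fndc5, which encodes the precursor of irisin, was at 77.9 and 68.54 CPM in WT and at 55.45 and 53.18 CPM in Eko. Its log2 fold change of -0.43 (SE 0.0826) did not pass (edgeR adjusted p = 0.126), but it did in DESeq2 (adjusted p = 0.00235), in the likelihood ratio test, with no filter on low counts, with the replicate block (1.15% of all genes called) and without WT mouse 2. Fndc5 was named after its values were seen. The list median was -0.04, and the largest positive value was 0.16 in Acadm, the medium-chain acyl-CoA dehydrogenase gene.

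The PPAR targets had lower values in Eko as a list, although none passed the adjusted threshold in edgeR's quasi-likelihood test. Of 25 genes, 22 had negative values, and 10 had an unadjusted p below 0.05, all lower, against 6.41% of all genes. In 17 of them both Eko mice lay below both WT mice (23% of all genes did), and in none above. The median log2 fold change was -0.22, beside -0.0051 over all genes. In DESeq2, 4 of the 25 passed, all lower, with 2.02% of all genes called. These were Acsl1 (adjusted p = 0.0042), Mlycd (0.0260), Lpl (0.0299) and Fabp3 (0.0307). Acot1, a cytosolic acyl-CoA thioesterase with a close paralogue in Acot2, had the largest negative value, -1.06 (SE 0.416, edgeR adjusted p = 0.403), at 0.6326 and 1.36 CPM in WT and 0.4408 and 0.5174 CPM in Eko. Ehhadh, a peroxisomal enzyme, had the largest positive value, 0.17. These genes are regulated together and are not independent of each other, and the list was chosen with earlier results of these data known. Without WT mouse 1 the median was -0.20 with 20 negative values, and without Eko mouse 1 it was -0.10 with 23 negative values and 7 genes at an unadjusted p below 0.05.

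**Figure D4:**
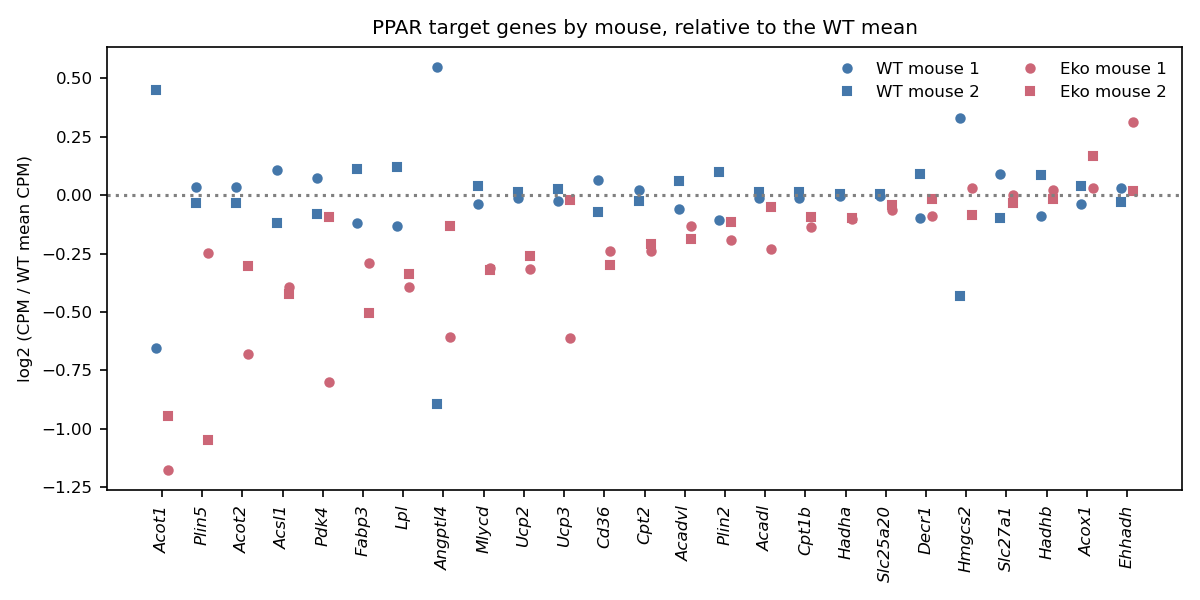
The 25 PPAR target genes, each mouse as log2 of its CPM over the WT mean, ordered by fold change. In 17 genes both Eko points (red) lie below both WT points (blue), with Acot1 and Angptl4 the most scattered in WT.

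The targets of NRF1 and GABP, mostly nuclear subunits of the respiratory chain, also had mostly lower values in Eko. In edgeR's quasi-likelihood test none of 21 passed and 19 had negative values. An unadjusted p below 0.05 was found in 7, all lower, against 6.41% of all genes. This count was 4 in DESeq2 and 4 in the likelihood ratio test. In 15 both Eko mice lay below both WT mice (23% of all genes did), and the median was -0.12. When any 1 mouse was left out the median stayed between -0.139 and -0.0956. Alas1, the first enzyme of haem synthesis, had the largest negative value, -0.47 (SE 0.115, edgeR adjusted p = 0.216). It was at 114.8 and 89.85 CPM in WT and at 74.62 and 72.71 CPM in Eko. Alas1 passed in DESeq2 (adjusted p = 0.0111, with 2.02% of all genes called) and in the likelihood ratio test (adjusted p = 0.0304, 1.94% called). It also passed with no filter on low counts (3.25% called). Sdhc, a subunit of succinate dehydrogenase, had the largest positive one, 0.06.

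Among the ketolytic enzymes, Bdh1, which oxidizes β-hydroxybutyrate in mitochondria, fell from 29.8 and 28.08 CPM in WT to 13.48 and 10.67 CPM in Eko (log2 fold change -1.26, SE 0.118, edgeR adjusted p = 0.0302). Oxct1 and Acat1, the next enzymes of the pathway, had log2 fold changes of -0.03 each.

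Markers of other cells and of fibre types did not all go in the same direction, and none passed in edgeR's quasi-likelihood test. List medians of log2 fold change ran from -1.08 (adipocyte) to 0.305 (Schwann cell), with -0.05 for endothelial markers. The summed level of 10 slow and oxidative fibre markers was 3409 and 3917 CPM in WT and 2929 and 2321 CPM in Eko. Myh2, the type IIa myosin gene, and Mb held most of this sum, with WT means of 1643 and 1367 CPM. Only these 2 had both Eko mice below both WT mice (23% of all genes did). The type I myosin gene Myh7 overlapped, at 113 and 339.3 CPM in WT and 237.3 and 145.2 CPM in Eko. So did Tnni1, Tnnt1 and Tnnc1, with log2 fold changes of 0.03, -0.09 and -0.18. Of the 10 slow and oxidative markers, 8 had negative values and none passed in edgeR's quasi-likelihood test. Their median of -0.37 turned to 0.14 without WT mouse 2. In DESeq2, 2 of them passed (Mb and Myh2, both lower), with 2.02% of all genes called. In edgeR with no filter on low counts 5 of them passed, with 3.25% of all genes called. The 10 fast fibre markers summed to 120000 and 124300 CPM in WT and 125500 and 130500 CPM in Eko. Myh4 held the largest part of this sum, with a WT mean of 64360 CPM. Of the 10, 8 had positive and 2 had negative values. Myh1 was lower in both Eko mice, at 4967 and 3984 CPM in WT and 3476 and 3121 CPM in Eko. Its log2 fold change was -0.44, and it passed in DESeq2 (adjusted p = 0.0132, with 2.02% of all genes called). The 8 adipocyte markers summed to 192.8 and 115.2 CPM in WT and 109.4 and 85.74 CPM in Eko, with 7 negative values, none at 0 and none past the threshold. With no filter on low counts 6 of them passed, all lower, in a setting that called 3.25% of all genes. Adipoq was among these although its groups overlapped, and its edgeR adjusted p was 0.422 with the default filter. In DESeq2 and in limma-voom 0 of the 8 passed. The list median of -1.08 was -0.31 without WT mouse 1. The defining adipocyte gene Adipoq was at 9.87 CPM in WT mouse 1 and at 2.014 to 4.86 CPM in the other 3. The 8 macrophage markers summed to 39.01 and 31.82 CPM in WT and 28.87 and 21.46 CPM in Eko, and 8 endothelial markers to 230.1 and 227.1 CPM and to 208.7 and 240.3 CPM. In bulk muscle, fewer cells or fibres of a type and less RNA per cell cannot be told apart. The part of these shifts in the lower values of Perm1, Ckmt2 and the PPAR targets was not tested.

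**Figure D5:**
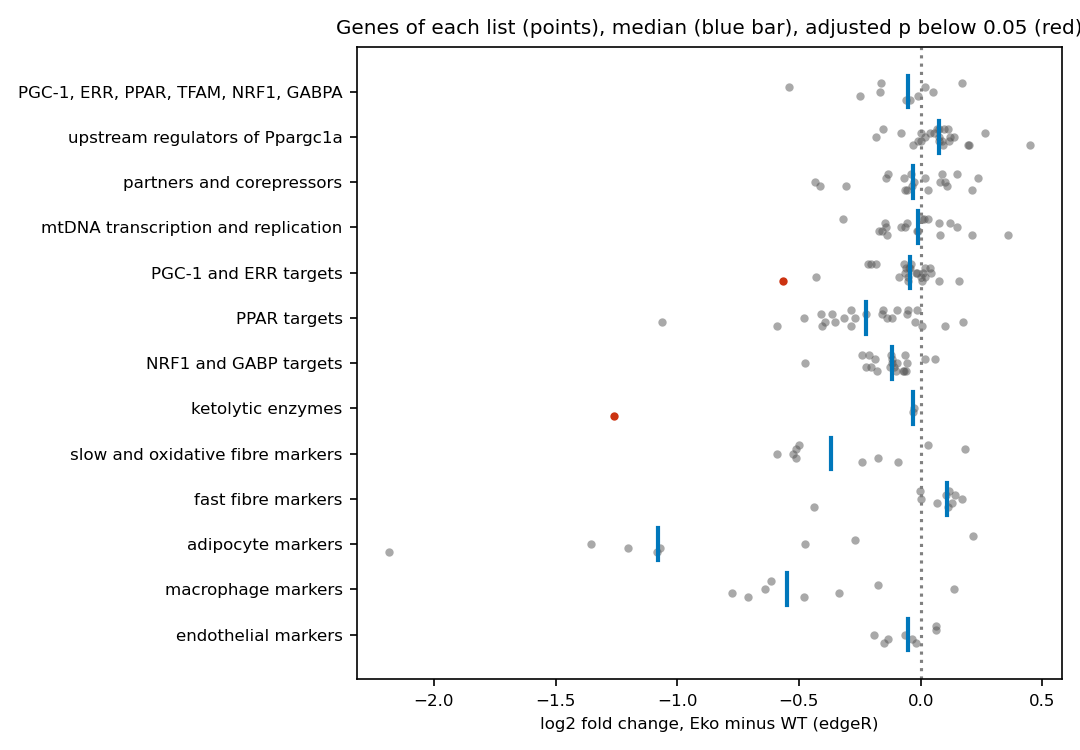
Log2 fold change of Eko against WT for each gene of each list (points), with list medians as blue bars and the genes past an adjusted p of 0.05, Ckmt2 and Bdh1, in red. The medians of PPAR targets (-0.22) and of slow and oxidative fibre, adipocyte and macrophage markers lie below 0. That of the upstream regulators of Ppargc1a lies above it (0.08).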

How the data were processed

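Poly-A RNA of 4 quadriceps (2 WT, 2 Mef2dα2 Eko) was sequenced in pairs with a stranded kit and aligned to mm10, and the authors deposited expected counts per gene from RSEM (Ensembl GRCm38 annotation). The submitters' processing notes name STAR 2.6.1a. The deposited expected counts held 0 values that were not whole, and 0 columns of the table were left unused. Genotypes came from the sample titles. Here, edgeR 4.0.16 (R 4.3.3) was used with TMM scaling, default filterByExpr and the quasi-likelihood test over all genes, genotype being the only term, with Benjamini-Hochberg adjustment at 0.05. DESeq2 1.42.0, limma 3.58.1 (voom), other scalings and filters, GC offsets (loess of exon GC content, known for 96.8% of genes), a block for the replicate number, and fits without each mouse in turn were alternatives, and the test was checked on simulated data. Levels per kilobase used all exons in GENCODE M21. CPM are TMM-scaled, and a count of 3 equals 0.0348 to 0.042 CPM; counting intervals cover counting error only.

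The study itself used DESeq2. The genes and lists were chosen with earlier results of these data known. All 10 genes were named, with Mef2d and the 3 ketolytic genes; from each list every gene past the threshold was named, and otherwise the largest value in each direction, and the 3 listed genes most like Ppargc1a, of which 1 is not reported here. Perm1, Fndc5, Ppp3ca, Acsl1, Mlycd, Lpl, Fabp3 and the markers named lie outside this rule and were chosen after their values were seen. Marker lists were summed: slow and fast fibre, muscle identity, adipocyte, macrophage and endothelial lists are given in the results, and brown adipocyte (medians of log2 fold change 0.19), fibroblast (-0.21), satellite cell (0.17), Schwann cell (0.31) and smooth muscle (0.17) lists held no called gene.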

Additional observations from a re-analysis of the deposited data

How the results depend on the processing

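None of the 10 genes passed the threshold under 14 of 15 alternatives, and 1 (Esrrb) did with no filter on low counts. The number of all genes called was 799 with no filter, 23 with at least 1 CPM in 2 libraries, 325 with DESeq2, 309 with DESeq2 without independent filtering, 312 with the likelihood ratio test, 44 with GC offsets, and 99 to 299 when a mouse was left out. Of all calls, 74.6% were lower in Eko, against 57.5% in DESeq2. PPAR targets had 10 calls with no filter, 4 with DESeq2, with or without independent filtering, 1 with the likelihood ratio test and 1 to 3 when a mouse was left out. PGC-1 and ERR targets had 0 with RLE or upper-quartile scaling, the 1 CPM filter or GC offsets, 2 with no filter, DESeq2 (both ways) or the likelihood ratio test, and 0 to 2 when a mouse was left out. Upstream regulators had 2 with no filter, 1 with DESeq2 and 0 to 2 when a mouse was left out. Partners had 2 with no filter, 1 with DESeq2 (both ways) and the likelihood ratio test, and NRF1 and GABP targets 1 in each of these settings; both had 0 to 1 when a mouse was left out.

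The paper describes the WT and Eko mice as littermates, but which mice shared a litter is not given in the sources used here. Deviations of same-numbered libraries correlated at 0.0909 over 16120 genes. With 2 mice a group this cannot decide whether same-numbered mice were pairs. With the replicate block, 186 genes were called (175 with GC offsets as well). PGC-1 and ERR targets then had 2 calls, PPAR targets 1 with the block and GC offsets, and none of the 10 genes passed. Adipocyte markers had 4 calls and slow and oxidative fibre markers 1 with the block. Without Eko mouse 1 these lists had 5 and 4 calls, and macrophage markers 3.

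Some signs turned. Ppargc1b was 0.048 in limma-voom, 0.015 with the replicate block, 0.077 with GC offsets and 0.10 with both. Nrf1 was -0.014 with GC offsets and -0.013 with the block as well. When a mouse was left out, Ppargc1a ran from -0.21 to 0.12, Ppargc1b from -0.35 to 0.45, Esrrg from -0.38 to 0.11, Ppara from -0.32 to 0.27, Tfam from -0.032 to 0.15, Nrf1 from -0.042 to 0.097, Mef2d from -0.061 to 0.11, Oxct1 from -0.15 to 0.12 and Pparg from -0.77 to 0.023. With the longest transcript as length, 4 of 10 genes kept their rank, and WT shares were 52.3% for Ppargc1a, 85.4% for Esrra, 3.83% for Esrrb, 10.8% for Esrrg, 16.5% for Ppara and 75.4% for Ppard. The cause was not tested. With 2 mice a group, a difference of the size seen in Esrra or Gabpa was not resolved after adjustment, and intervals for Ppargc1b and Ppara span about 0.5 or more on either side of 0.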
